A study of Mus musculus with 2 samples.

Results

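The genes described here are 41 genes of glycolysis and of the response to low oxygen, followed in mouse CD4+ T cells activated without or with the cytokine IL-27. They were listed by symbol as genes of these pathways, with earlier results of these data known, and a gene was taken as measured when at least 1 probe set named that gene alone in the platform annotation. By that rule 37 of the 41 were measured, out of 11807 genes on the arrays, by 63 probe sets. Gpi1, Pgam1, Eno1 and P4ha1 had no such probe set and were not analysed here.

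The series holds 2 arrays. Naive CD4+ T cells of female C57BL/6J mice, taken from lymph nodes and spleen, were cultured for 60 h with plate-bound antibodies to CD3 and CD28 as the activating stimulus. The untreated culture received no cytokine, and the other received 25 ng/ml of recombinant murine IL-27, a cytokine of the IL-12 family. The labels give no animal age, no oxygen level and no number of mice per culture, and no genetic change in either group. With 1 array per group there is no replicate and no test could be made, so each difference below compares these arrays and not the conditions.

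Glycolysis splits glucose into pyruvate and yields ATP without oxygen, and activated T cells run it at a high rate even when oxygen is present, releasing much of the carbon as lactate. Many of its genes are targets of hypoxia-inducible factor (HIF), a dimer of an oxygen-regulated alpha subunit such as Hif1a with Arnt. When oxygen is plentiful, the prolyl hydroxylases Egln1, Egln2 and Egln3 mark the alpha subunit and the Vhl ubiquitin ligase complex removes it, so HIF is controlled largely at the level of the protein. HIF that escapes this binds a short core motif and raises glucose carriers and glycolytic enzymes, and also genes for mitophagy, collagen modification and blood vessel growth.

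Intensities are RMA values of the deposited table on a linear scale, and a difference is the log2 intensity of the array labelled IL-27-treated (the IL-27 array below) minus that of the untreated array, so a negative value means lower on the IL-27 array. A gene is represented by the probe set that was brightest on average over the arrays. The background floor was an intensity of 23.1, the 95th percentile of genes of other tissues such as liver and brain, and the 6963 genes above it on either array had a median difference of 0.02. The median intensities of the arrays were 33.3 and 32.4. All 8 measured CD4+ T cell markers were within 2-fold, with Cd4 at intensities of 342.5 and 395.4 and a median difference of -0.20, and their summed intensity was 15814 on the untreated array and 14066 on the other. Of the markers of other cells, 1 of 5 for B cells, 1 of 8 for myeloid cells, 1 of 4 for NK cells, 1 of 2 for CD8 T cells and 0 of 2 for erythroid cells exceeded the floor. Their summed intensities were 68.7 and 73.8 for B cells, 121.4 and 110.0 for myeloid cells, 148.2 and 49.98 for NK cells, 136.5 and 196.0 for CD8 T cells, and 35.2 and 37.2 for erythroid cells. The gap in the NK cell sum lay in Klrd1, at 114.2 on the untreated array and 16.4, below the floor, on the other. Ncr1, Klrb1c and Klra1 were below the floor on both arrays, with differences of -0.09, 0.04 and 0.01. The part of such other cells in the results below was not tested. Control probe sets for Gapdh differed by -0.11 at the 3' end of the transcript, -0.18 in the middle and -0.12 at the 5' end, so both ends of this transcript differed by like amounts.

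The direction of every difference rests on the labels, and some genes run against them. Socs3, a feedback inhibitor that IL-27 is known to raise through STAT3, had an intensity of 1122 on the untreated array and 185.8 on the IL-27 array. Il21, also a STAT3 target, stood at 384.3 and 26.7, and Il10 at 47.2 and below the floor, at least 2.04-fold lower. Il2 and Gata3, which IL-27 is known to restrain, stood at 338.0 and 1853 and at 36.5 and 166.4. Tbx21, which IL-27 is known to raise, was near level at 408.0 and 349.0. The labels were kept as given, and whether the arrays were exchanged cannot be told from 1 array per group. If they were, every difference below would take the opposite sign, and each gene given as lower with the cytokine label would be higher with the cytokine.

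Most members, meaning the listed genes of glycolysis and of the HIF response, were lower on the IL-27 array. Of the 36 members above the floor on at least 1 array, 33 were lower by any amount, against 47.6% of all genes above the floor. At least 1.5-fold lower were 15 members, against 7.24% of genes, and at least 2-fold lower were 9, against 2.73%. No member was 1.5-fold or more higher, where 5.11% of genes were. Adm, Vhl and Arnt passed the floor on 1 array only, so their difference helped them pass. Among the 33 members above the floor on both arrays, 31 were lower (47.1% of such genes), 13 were lower by 1.5-fold or more (6.42%) and 7 by 2-fold or more (2.18%).

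**Figure D1:**
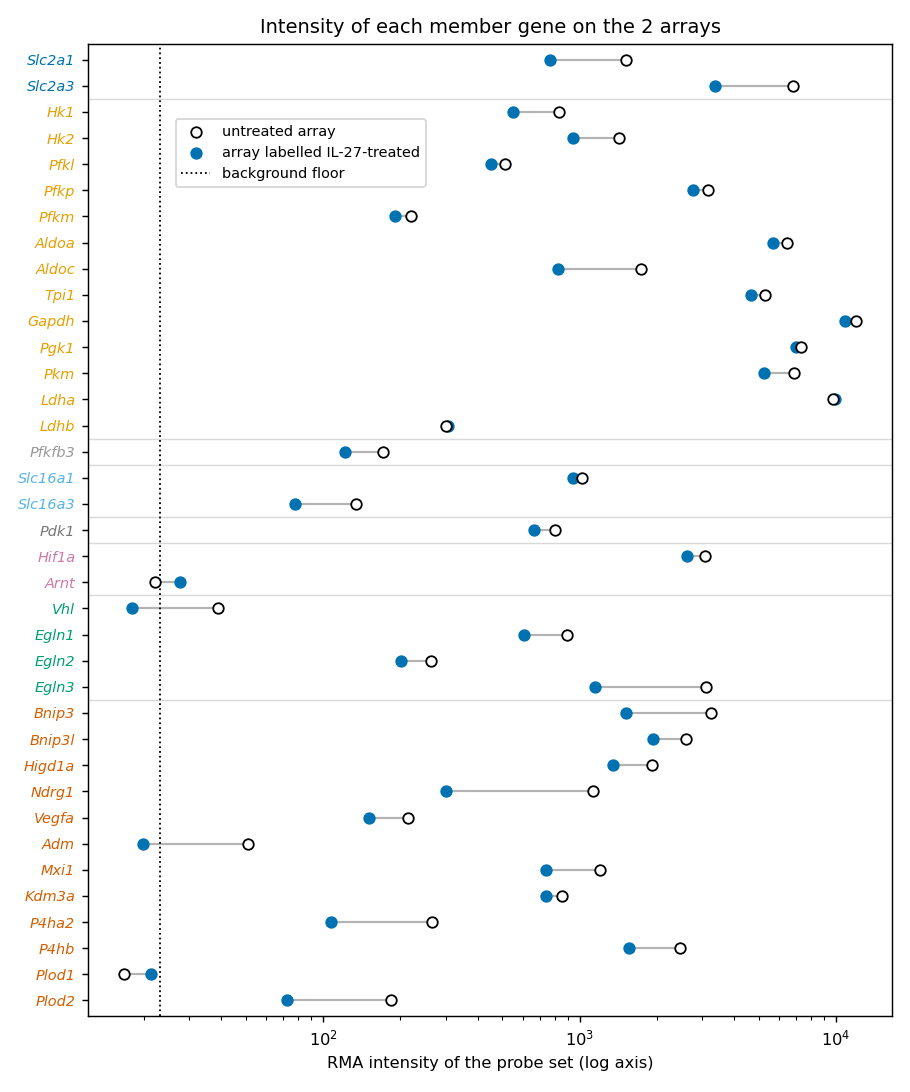
Intensity of the probe set used for each of the 37 measured members, on a log axis, on the untreated array (open circles) and the IL-27 array (filled circles), with gene names coloured by role and the floor of 23.1 as a dotted line. The filled circle lies to the left for all members except Ldha, Ldhb, Arnt and Plod1, and the gap is widest for Ndrg1.

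The gap was wide at the entry of glucose into the cell. Slc2a3, the high-affinity carrier GLUT3, had an intensity of 6763 on the untreated array and 3358 on the IL-27 array, which is 2.01-fold lower. Slc2a1, the carrier GLUT1 that T cell activation brings to the surface, stood at 1512 and 767.5, or 1.97-fold lower. Thus the former lay just inside and the latter just outside a 2-fold difference. The probe sets of each carrier pointed the same way. Those of Slc2a1 differed by -0.98 and -1.03, and the 4 of Slc2a3 by -1.01, -1.37, -1.77 and -2.07. The probe set used for Slc2a3 is of the _s_at type, designed against sequence shared by several transcripts, and 1 of its dimmer probe sets was below the floor on the IL-27 array.

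The hexokinases, which trap glucose in the cell by phosphorylation, came next. Hk1 had intensities of 832.7 and 547.5, a difference of -0.61, and its dimmer probe set gave -1.16. Hk2, the isoform induced in activated lymphocytes, stood at 1419 and 938.5, a difference of -0.60. Both hexokinases were therefore about 1.5-fold lower on the IL-27 array.

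The 3 phosphofructokinase subunits, which form the main control point of the pathway, lay much closer together. Pfkl differed by -0.18, with intensities of 511.6 and 452.0. Pfkp, abundant in lymphocytes, differed by -0.18, with intensities of 3155 and 2779. Pfkm, the muscle isoform, differed by -0.21, with intensities of 219.5 and 189.7. Pfkfb3 is not a step of the pathway but makes the activator of phosphofructokinase, fructose 2,6-bisphosphate. Its intensities of 171.7 and 121.8 gave a difference of -0.50, larger than that of any of the 3 subunits, and a second probe set lay below the floor on both arrays.

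The aldolases, which split the sugar, stood apart from each other. Aldoa, the main aldolase of most cells, had intensities of 6452 and 5654, a difference of -0.19, and its 4 probe sets ran from -0.18 to -0.33. Aldoc, the isoform best known from brain and a hypoxia-inducible gene, had intensities of 1732 and 824.6, a difference of -1.07. Only the brighter of its 2 probe sets was above the floor, and the mean of both gave -0.58. Aldoc was the 1 enzyme of the pathway at least 2-fold lower.

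Downstream of aldolase the differences were small. Tpi1, the triose phosphate isomerase, had intensities of 5305 and 4670, and Gapdh, which makes the NADH of the pathway, had 11944 and 10859, differences of -0.18 and -0.14. Pgk1, the first ATP-yielding enzyme, stood at 7265 and 6987, a difference of -0.06, with -0.27 by its other probe set. Pkm, the pyruvate kinase that closes the pathway, was set lower than these, with intensities of 6841 and 5228 and a difference of -0.39.

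The lactate dehydrogenase genes were level, and the lactate carriers were not alike. Ldha, the subunit that favours lactate production and a textbook HIF target, had intensities of 9754 and 9885, a difference of 0.02. Ldhb, which favours the reverse step, had 302.4 and 306.9, also a difference of 0.02, which turned to -0.01 after loess normalization. Of the lactate carriers, Slc16a1, or MCT1, differed by -0.11 with intensities of 1019 and 941.5. Slc16a3, or MCT4, the exporter of highly glycolytic cells and a HIF target, had 134.5 and 77.9 and was 1.73-fold lower. Pdk1, the kinase that keeps pyruvate out of mitochondria and another HIF target, had 800.0 and 663.7, a difference of -0.27, with -0.20 by its other probe set.

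**Figure D2:**
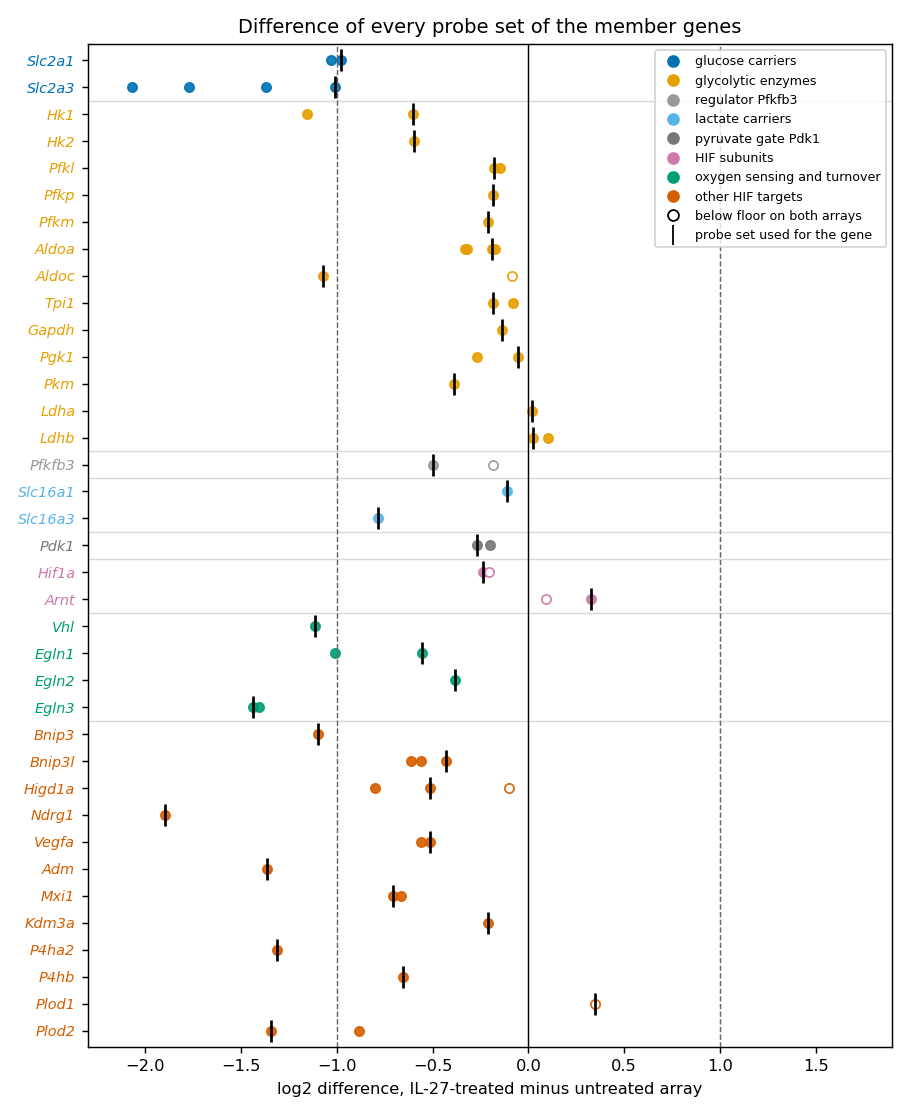
Log2 difference, IL-27-treated minus untreated array, of each of the 63 probe sets of the member genes, coloured by role, with open circles for probe sets below the floor on both arrays, black ticks for the probe set used and dashed lines at 2-fold. The probe sets of Slc2a1, Slc2a3, Egln3, Bnip3l and Mxi1 all lie to the left of 0, while those of Ldha and Ldhb lie at or just above it.

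Agreement among probe sets is the only internal measure of error here, and it covers the probes and not the cultures. Over 2135 genes with several probe sets above the floor on both arrays, the pooled SD of the difference within a gene was 0.20, and over the 16 such members it was 0.23. In 15 of those 16 members every such probe set was lower on the IL-27 array, and Ldhb was the exception. The same held for 30.9% of the 2135 genes. The differences of the enzymes Pfkl, Pfkp, Aldoa, Tpi1, Gapdh, Pgk1, Ldha and Ldhb and of Slc16a1 were smaller in size than the SD of 0.20. Those of Slc2a1, Bnip3 or Egln3 were several times larger. The SD was pooled over genes of all intensities and was not computed for bright genes alone. Aldoa, Tpi1, Gapdh, Pgk1 and Ldha were among 157 genes with a mean log2 level of 12 or more. Differences of those 157 genes had quartiles of -0.04 and 0.07.

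The HIF subunits themselves differed little. Hif1a, the oxygen-regulated alpha subunit, had intensities of 3085 and 2613, a difference of -0.24. Arnt, its constant partner, was near the floor, with 22.0 and 27.5, and lay at least 1.19-fold higher on the IL-27 array. In these bulk cultures fewer cells expressing a gene and less of its RNA per cell cannot be told apart, and the arrays hold no measure of HIF protein.

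The genes that turn HIF off were lower, most of all Egln3. Egln3, a prolyl hydroxylase that HIF itself induces, had intensities of 3105 and 1147, or 2.71-fold lower, and its second probe set gave -1.41 against -1.44. Egln1, the main oxygen sensor of most cells and also a HIF target, had 889.8 and 605.0, a difference of -0.56, or -1.01 by its dimmer probe set. Egln2, the hydroxylase that hypoxia does not induce, had 262.7 and 201.6, a difference of -0.38. The order of the 3 hydroxylases was thus Egln3, Egln1, Egln2, and the gap between Egln1 and Egln2 was 0.17 with the probe sets used and 0.40 with the mean of the probe sets of Egln1. Vhl, the substrate receptor of the ligase, had an intensity of 39.0 on the untreated array and lay below the floor on the IL-27 array, which makes it at least 1.69-fold lower.

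Several genes that HIF induces outside glycolysis carried wide gaps. Ndrg1, a stress-responsive gene widely used as a marker of hypoxia, stood at 1123 and 300.8, or 3.73-fold lower. Of all genes above the floor, 0.718% had a difference as low or lower. Its single probe set is of the _s_at type. Adm, the vasodilator peptide adrenomedullin, had 51.0 on the untreated array and lay below the floor on the IL-27 array, which makes it at least 2.21-fold lower. Vegfa, the growth factor of blood vessels, had 214.6 and 150.3, a difference of -0.51, with -0.56 by its other probe set.

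Mitochondrial targets were lower as well, by different amounts. Bnip3, a mitophagy receptor, had intensities of 3239 and 1515 and was 2.14-fold lower. Its relative Bnip3l, or NIX, had 2605 and 1929, a difference of -0.43, and its dimmer probe sets gave -0.56 and -0.61. All 3 probe sets of Bnip3l thus stood above the difference of -1.10 of Bnip3. Higd1a, which acts on the respiratory chain in hypoxia, had 1919 and 1345, a difference of -0.51, and -0.80 by a probe set near the floor.

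Regulators of transcription among the targets were less far apart. Mxi1, an antagonist of Myc, had intensities of 1201 and 736.5, a difference of -0.71, and its other probe set gave -0.66. Kdm3a, a histone demethylase, had 854.1 and 738.8, a difference of -0.21. Kdm3a therefore had the smallest difference among the 11 targets above the floor, about the size of the SD between probe sets.

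Enzymes that modify collagen chains belong to the HIF response in many cells, and T cells are not known for making collagen. P4ha2, a catalytic subunit of collagen prolyl hydroxylase, had intensities of 266.0 and 107.0 and was 2.49-fold lower. Plod2, a lysyl hydroxylase, had 183.9 and 72.3 and was 2.54-fold lower, with -0.88 by its dimmer probe set. P4hb, the disulfide isomerase that also serves as the other subunit of the prolyl hydroxylase, had 2453 and 1557, a difference of -0.66. Plod1 was below the floor on both arrays by the probe set that named it alone, and no fold is given. Probe sets that named both Gmppa and Plod1 were left out by the rule. They differed by -0.22, -0.43 and -0.72, the first of them below the floor on both arrays.

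Set side by side, the glycolytic enzymes and the other HIF targets differed in how far they lay from 0. The 13 measured enzymes from hexokinase to lactate dehydrogenase had a median difference of -0.18, of which 11 were lower by any amount, 3 by 1.5-fold or more and 1 by 2-fold or more. The 11 other targets above the floor had a median of -0.71, of which 11 were lower, 7 by 1.5-fold or more and 5 by 2-fold or more. All genes above the floor had a median of 0.02, and 47.6% were lower, 7.24% by 1.5-fold or more and 2.73% by 2-fold or more. The medians of the enzymes and the other targets thus lay 0.52 apart, with the enzymes nearer 0. Adm passed the floor on the untreated array only, so its difference helped it pass. Over the 10 targets above the floor on both arrays the median was -0.68. Of these, 10 were lower, 6 by 1.5-fold or more and 4 by 2-fold or more. Of all genes above the floor on both arrays, 47.1% were lower, 6.42% by 1.5-fold or more and 2.18% by 2-fold or more. With the carriers, Pfkfb3 and Pdk1 added to the enzymes, the median of 19 genes was -0.21. No test bears on this contrast, since each group has 1 array.

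Brightness moved with that contrast. Among all 157 genes with a mean log2 level of 12 or more the differences were narrow, with quartiles of -0.04 and 0.07 and a 5th percentile of -0.24. That range held 6 of the enzymes (Aldoa, Gapdh, Ldha, Pgk1, Pkm and Tpi1), with a median of -0.16, and 0 of the other targets. Slc2a3 was in it too, and was the 1 gene of the 157, or 0.637%, at least 2-fold lower. Of the 7 members there, 6 were lower, against 42.7% of genes. At a level of 10 to under 12, the enzymes Aldoc, Hk2 and Pfkp had a median of -0.60, and the targets Bnip3, Bnip3l, Higd1a and P4hb a median of -0.58. In that range 10 of 10 members were lower (44.6% of 789 genes), and 6 were at least 1.5-fold lower (4.44%). At 8 to under 10, where 8 of 9 members were lower (46.2% of 2221 genes), Hk1, Ldhb and Pfkl had a median of -0.18, and Kdm3a, Mxi1 and Ndrg1 one of -0.71. Below 8, where 9 of 10 members were lower (49.3% of 3796 genes), stood Pfkm at -0.21 and Adm, P4ha2, Plod2 and Vegfa with a median of -1.33. So the enzymes and targets had like medians in the range of 10 to under 12, and unlike medians in the lower ranges, from 1 to 4 genes a side. Whether brightness had a part in the contrast was not tested.

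**Figure D3:**
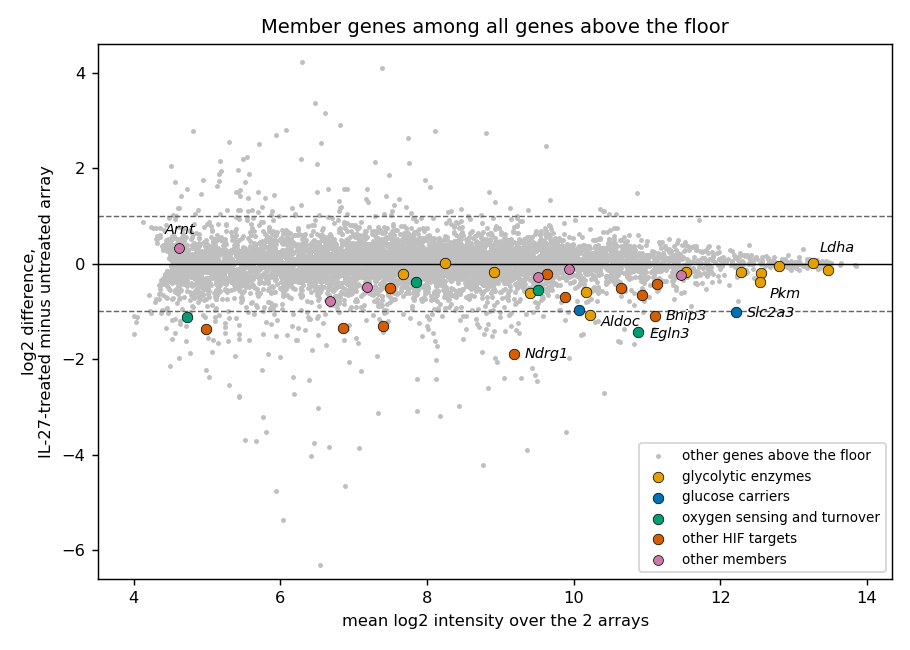
Log2 difference, IL-27-treated minus untreated array, against the mean log2 intensity of each gene above the floor, with members coloured by role and dashed lines at 2-fold. The cloud of all genes narrows to the right, where Aldoa, Gapdh, Pgk1 and Tpi1 lie just under 0, Ldha just above it and Pkm lower, at -0.39. Ndrg1, Egln3, Bnip3, Aldoc and Slc2a3 lie at or below the lower dashed line.

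Since the members include many known HIF targets, their promoters are shown where the difference was widest and where it was nearest 0. The 4 members with the lowest differences among those at least 2-fold lower, above the floor on both arrays and present in the RefSeq promoter table are given first, and then the 2 enzymes nearest 0. Each is the 250 bases before the first listed start, from RefSeq on build GRCm38.p6, 5' to 3' on the strand of the gene. Capitals mark the HIF core motif, ACGTG or GCGTG on the strand shown, or CACGT or CACGC where it lies on the other strand. The run CACGTG holds the motif on both strands and counts as 2 matches, and it is also the E-box that Myc and other factors bind.
Egln3: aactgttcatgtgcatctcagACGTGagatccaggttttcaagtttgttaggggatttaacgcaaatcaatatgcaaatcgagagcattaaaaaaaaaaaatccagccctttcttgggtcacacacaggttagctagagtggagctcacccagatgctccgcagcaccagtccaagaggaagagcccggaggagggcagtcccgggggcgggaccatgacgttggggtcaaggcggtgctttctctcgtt
P4ha2: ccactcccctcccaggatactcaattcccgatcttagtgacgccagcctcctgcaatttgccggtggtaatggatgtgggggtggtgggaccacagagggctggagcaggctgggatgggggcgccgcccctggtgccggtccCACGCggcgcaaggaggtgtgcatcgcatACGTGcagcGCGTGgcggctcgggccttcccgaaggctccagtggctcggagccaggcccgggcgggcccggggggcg
Bnip3: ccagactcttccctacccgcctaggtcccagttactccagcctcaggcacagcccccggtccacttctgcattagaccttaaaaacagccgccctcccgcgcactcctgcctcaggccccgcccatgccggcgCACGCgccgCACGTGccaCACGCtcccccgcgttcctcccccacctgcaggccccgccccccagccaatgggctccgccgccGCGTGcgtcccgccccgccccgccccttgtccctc
Aldoc: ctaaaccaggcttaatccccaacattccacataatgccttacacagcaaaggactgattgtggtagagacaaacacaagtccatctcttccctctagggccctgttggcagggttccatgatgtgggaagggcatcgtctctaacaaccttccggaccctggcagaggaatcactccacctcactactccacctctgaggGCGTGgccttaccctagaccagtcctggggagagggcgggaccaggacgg
Ldha: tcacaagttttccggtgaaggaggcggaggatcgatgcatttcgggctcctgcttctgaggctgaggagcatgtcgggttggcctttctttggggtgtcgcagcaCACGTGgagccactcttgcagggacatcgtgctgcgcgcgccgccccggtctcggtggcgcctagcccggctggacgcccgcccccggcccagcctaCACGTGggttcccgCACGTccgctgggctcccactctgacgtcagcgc
Ldhb: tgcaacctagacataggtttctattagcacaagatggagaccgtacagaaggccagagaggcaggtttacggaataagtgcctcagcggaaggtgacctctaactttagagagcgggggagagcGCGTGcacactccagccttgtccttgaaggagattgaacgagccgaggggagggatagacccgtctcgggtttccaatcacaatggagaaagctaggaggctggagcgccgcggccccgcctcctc

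The windows lie at chr12:54203875-54204124 on the minus strand for Egln3, chr11:54100674-54100923 on the plus strand for P4ha2, chr7:138909507-138909756 on the minus strand for Bnip3, chr11:78322823-78323072 on the plus strand for Aldoc, chr7:46845554-46845803 on the plus strand for Ldha and chr6:142507958-142508207 on the minus strand for Ldhb. Egln3, with a difference of -1.44, had 1 match, P4ha2 had 3, Bnip3 had 5 and Aldoc had 1. Ldha, at 0.02, had 5 matches and Ldhb had 1. Aldoc and Ldha each have a second start in the table, with 1 match in each of those windows. Genes at either end of the range of differences thus held the motif, and the number of matches did not follow the difference among these 6.

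Of 33 measured members with a promoter in the table, 26 (78.8%) held at least 1 match in the first window. The share was 69.2% for the 13 glycolytic enzymes and 77.8% for 9 other targets. It was 38.6% over all 32851 windows of the table. Over the 5738 genes that were above the floor on these arrays and matched by symbol, it was 59.6%. The 9 targets include Plod1, which was below the floor on both arrays by the probe set that named it alone. They lack Ndrg1, Plod2 and Bnip3l, which have no promoter in the table. A match is a description of the letters and not a site of binding.

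Genes of the same pathways outside the 41 were taken from lists of symbols, chosen with earlier results of these data known. Other HIF pathway and hypoxia-inducible genes leaned the same way. Of 30 above the floor, 26 were lower by any amount, against 47.6% of all genes above the floor. By 1.5-fold or more 11 were lower (7.24% of all genes), and by 2-fold or more 5 were (2.73%). None was 1.5-fold or more higher (5.11%), and the median was -0.45. Hmox1 and Kdm4b, named after their values were seen, passed the floor only on the untreated array and are among those counted as lower. Over the 28 genes above the floor on both arrays, 24 were lower (47.1% of all such genes), with a median of -0.33. By 1.5-fold or more 9 were lower (6.42%), and by 2-fold or more 4 were (2.18%). Ero1a, an oxidase of the endoplasmic reticulum, had intensities of 3222 and 1010, a difference of -1.67. Gbe1, the glycogen branching enzyme, had 112.3 and 45.4, a difference of -1.31. Hilpda, a regulator of lipid droplets, had 884.5 and 359.9, a difference of -1.30. Errfi1, an inhibitor of the EGF receptor, had 147.0 and 62.3, a difference of -1.24. The 4 genes on the higher side, all within 1.5-fold, reached at most 0.26.

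Other genes of glycolysis did not lean to either side. Of 11 above the floor, 6 were lower and 5 higher, with a median of -0.04, where 47.6% of all genes above the floor were lower. Over the 10 above the floor on both arrays, 5 were lower (47.1% of all such genes) and 5 higher, with a median of 0.01. Eno3, the enolase known from muscle, had intensities of 274.0 and 770.9 and was 2.81-fold higher, opposite in sign to most members. Pgm1, which links glycogen to glycolysis, differed by -0.58, Pgm2 by -0.31, and Bsg, the chaperone of the lactate carriers, by -0.57 with intensities of 2755 and 1858.

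The pentose phosphate pathway, which branches off after hexokinase to make ribose and NADPH, had 5 genes above the floor. Of these, 4 were higher and the median was 0.15, where 3626 of all 6963 genes above the floor were higher. Rpia, which makes ribose 5-phosphate, had intensities of 602.3 and 922.1, a difference of 0.61. Pgd differed by 0.18, Tkt by 0.15 and Pgls by -0.08, each smaller in size than the SD of 0.20 between probe sets.

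Among 11 regulators of glycolysis in activated T cells, 5 were lower and 6 higher, and the median was 0.005. Of all genes above the floor, 47.6% were lower. Txnip, which restrains glucose uptake and is known to rise with glucose metabolites, had intensities of 386.3 and 186.3 and was 2.07-fold lower. Pik3cd, a kinase subunit downstream of CD28, differed by -0.43, Akt2 by -0.37 and Tsc1, an inhibitor of mTOR, by 0.32. Myc, a driver of glycolytic genes in activated T cells and named after its value was seen, had 1181 and 1375, a difference of 0.22.

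**Figure D4:**
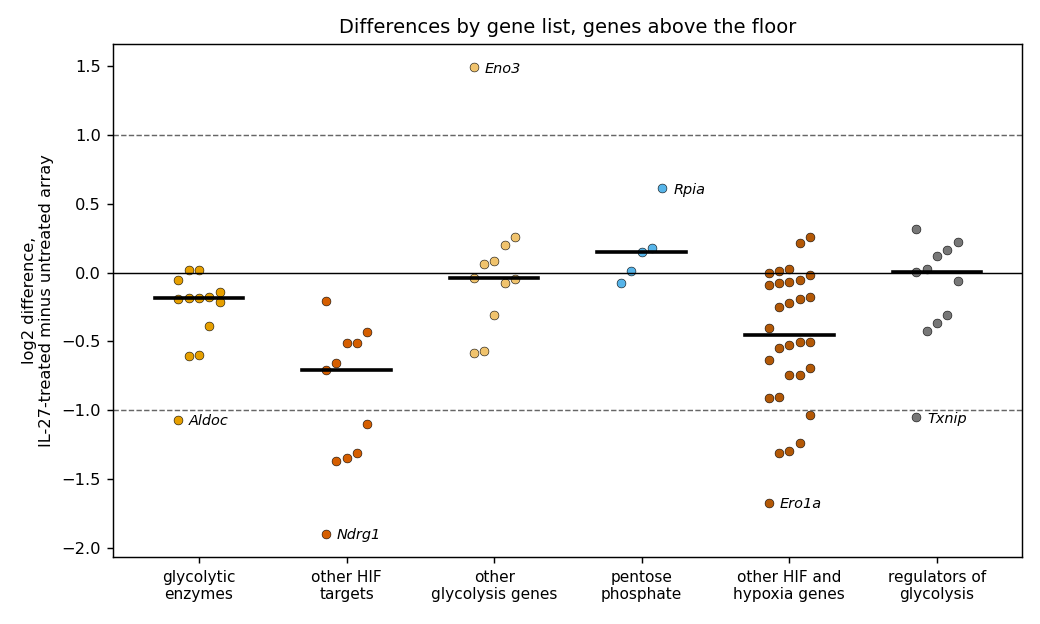
Log2 difference, IL-27-treated minus untreated array, of each gene above the floor in 6 lists, with a bar at the median and dashed lines at 2-fold. The medians are -0.18 for glycolytic enzymes, -0.71 for other HIF targets, -0.04 for other glycolysis genes, 0.15 for the pentose phosphate pathway, -0.45 for other HIF and hypoxia genes and 0.005 for regulators of glycolysis.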

How the data were processed

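Gene expression was measured on 2 Affymetrix arrays, 1 per group, from 100 ng of total RNA each. The deposited values are linear intensities, 1 for each probe set and array. The authors made them with RMA, per the submitters' processing notes, with settings not given in the sources used here. Quantile normalization, a step of RMA, hides any difference in the total RNA of a cell, and having 2 arrays limits the precision of each value.

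A single gene symbol was annotated for 18003 of 22716 probe sets, several for 287, and none for 4426. Differences were taken on the log2 scale with no pseudocount (Python 3.11.15, pandas 2.3.3), and 43 of 50 off-tissue genes set the floor. Fold bounds divide the brighter intensity by the floor. No test was run, and counts were set beside those over all genes above the floor. The counting code was checked on simulated arrays, with changes larger than 2-fold planted in genes well above the floor. That check did not cover small differences or changes in dim genes.

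All measured members were named, and of each other list up to 4 genes with the largest absolute difference. The members and lists were chosen with earlier results of these data known. Alternatives covered the filter on dim genes, median and loess normalization (statsmodels 0.14.6), the choice of probe set, a pseudocount of 16 and the makeup of the lists.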

Additional observations from a re-analysis of the deposited data

How the results depend on the processing

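The contrast of glycolytic enzymes with other HIF targets kept its direction under every alternative run, and the counts of members lower stayed close. The alternatives did not match the 2 groups for brightness. At a mean log2 level of 10 to under 12, the medians were -0.60 for 3 enzymes and -0.58 for 4 targets. The other lists were computed under the settings of the report, on at least 1 array or on both arrays above the floor. The median of the glycolytic enzymes ranged from -0.21 to -0.15 over 9 alternatives, that of the other HIF targets from -0.75 to -0.61 over 10, and their difference from 0.50 to 0.54 over 8. The members lower by any amount numbered 30 to 34, those at least 1.5-fold lower 13 to 16, and those at least 2-fold lower 7 to 10. Of the 33 members that were lower, 0 turned to the higher side where measured. Of the 9 at least 2-fold lower, 4 (Bnip3, Egln3, P4ha2 and Plod2) stayed so under every alternative. Ndrg1 stayed so wherever it was measured but has no value without _x_at and _s_at probe sets, and Adm, Aldoc, Slc2a3 and Vhl did not stay. Aldoc was at -0.58 with the mean of its probe sets, of which 1 was below the floor on both arrays. Vhl was at -0.69 and Adm at -0.91 with a pseudocount of 16, and at -0.76 and -1.14 when values under the floor were set to it, an alternative chosen after seeing the data. Slc2a3 was at -0.97 with each array's median subtracted and at -2.07 without _x_at and _s_at probe sets. Values were compared with the SD of 0.20 between probe sets of a gene. No paired analysis was possible because each group has 1 array. The table has no detection calls, so values near the floor are the least certain.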
